A study of Mus musculus with 6 samples.

Results

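Genes of the NRF2, glutathione and peroxide defence were examined in mouse pre-B cells that BCR-ABL1 had transformed, a model of Philadelphia chromosome-positive acute lymphoblastic leukaemia, which this fusion kinase drives. The set was a list of 37 genes, chosen by name for their known roles but with earlier results of these data known. Of them, 35 were measured among the 19938 genes of the array. Each gene was read from a probe set that carries its symbol alone, and where there were several such probe sets the one with the highest mean over the 6 arrays was used. Prdx5 and Prdx6 had no such probe set, so no value is given for them.

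The compared cells were Dusp6 knockout (Dusp6 KO, 3 arrays) and Dusp6 wild type (Dusp6 WT, 3 arrays). Cells of both genotypes carried BCR-ABL1 and came from the C57Bl/6-SV129j background, and the labels list no treatment, age or sex. Dusp6 encodes a phosphatase that inactivates the kinase ERK, and the comparison sets leukaemia cells without it against cells with it. Other differences between the KO and WT cells cannot be told apart from the loss of Dusp6 in this design. Dusp6 itself had log2 signals of 9.04, 9.06 and 9.15 on the KO arrays and 12.36, 12.46 and 12.49 on the WT arrays, 10.3-fold lower in KO (limma adjusted p = 4.3e-10). The labels give neither the deleted part of Dusp6 nor whether arrays of a genotype came from separate animals or cultures, so every p-value below measures the spread between these arrays, which may be technical.

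NRF2, the product of Nfe2l2, is a transcription factor that switches on genes against oxidants and electrophiles. KEAP1 binds it and hands it to a ubiquitin ligase in unstressed cells, and oxidants release it from that control. Its target genes make glutathione, attach glutathione to reactive molecules, keep thioredoxin reduced and break down haem, while peroxiredoxins, glutathione peroxidases and catalase remove peroxides. Rapidly dividing leukaemia cells produce oxidants, and this system is known as their buffer against them.

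The set did not move as a unit. Of the 35 measured genes, 8 were higher and 7 were lower in Dusp6 KO cells, called at a limma adjusted p under 0.05 over all genes (22.9% and 20% of the set). Over all genes, 9.66% were called higher and 10.2% lower, or 19.8% in either direction against 42.9% of the set. Because the list was chosen with earlier results known, its shares here and below describe the list and are no independent evidence about the pathway. Brighter genes were called more often, at 30.8% in the brighter part of the array (signal at least the gene median). That range held 26 members, of which 11 were called (42.3%). The median log2 difference (KO minus WT throughout) was 0.030 over the set and 0.0020 over all genes, and the median absolute difference was 0.089 over the set and 0.071 over all genes. Most changes were small, and Akr1e1 was the single member past 2-fold, a size that 1.29% of all genes reached.

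Values of the 3 KO and 3 WT arrays did not overlap for 20 of the 35 genes, among them all 15 called genes, where 35.7% of all genes showed no overlap. In 12 of them KO lay above WT and in 8 below, against 17.3% and 18.4% of all genes. The uncalled 20 differed by -0.10 to 0.15, and for 17 of them the 95% interval of the difference lay inside -0.25 to 0.25 on the log2 scale. Of the 15 calls, 11 were kept in every setting that tested them, 4 higher (Akr1e1, Mgst2, Mgst1 and Gsto1) and 7 lower (Gsr, Blvrb, Hmox1, Prdx4, Gstm1, Cat and Gss). The other 4, Nfe2l2, Txnrd2, Gpx1 and Cbr1, were lost in some settings.

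**Figure D1:**
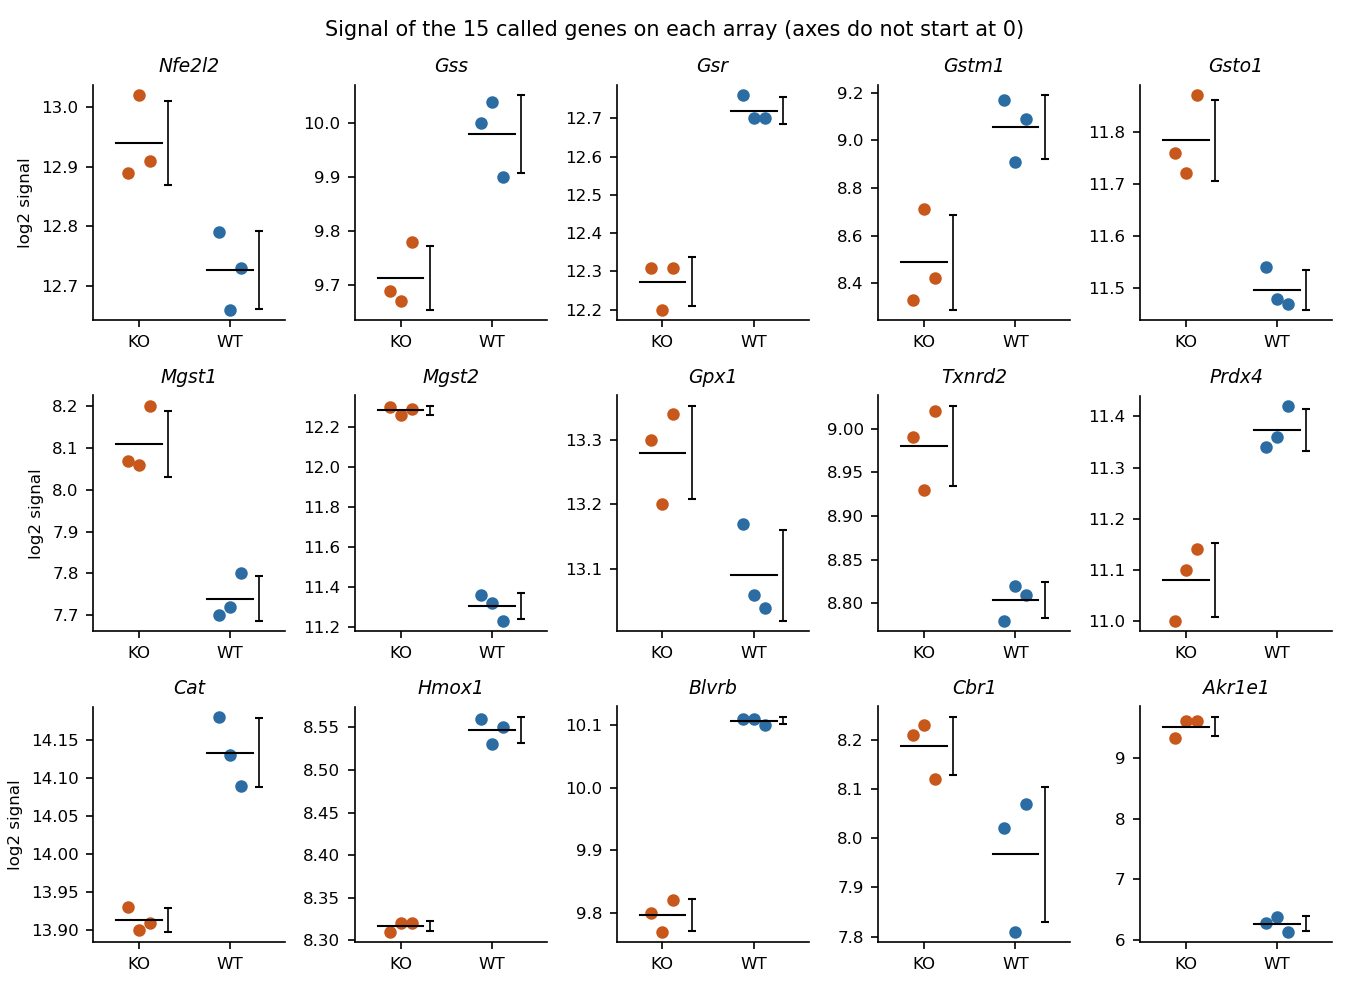
Log2 signal (vertical axes, which do not start at 0) of the 15 called genes on each of the 3 Dusp6 KO and 3 Dusp6 WT arrays. Points are arrays, horizontal lines group means and bars the standard deviation (n = 3). The groups do not overlap in any panel, and the gap is widest for Akr1e1, with a mean of 9.52 in KO and 6.26 in WT.

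Nfe2l2, the gene of NRF2, rose slightly. It had log2 signals of 12.89, 13.02 and 12.91 in KO cells and 12.79, 12.66 and 12.73 in WT cells. Each KO array lay above each WT array, a difference of 0.21 ± 0.053 (limma SE) or 1.16-fold (adjusted p = 0.019). The call was lost without KO replicate 2 (adjusted p = 0.064), WT replicate 2 (0.073) or WT replicate 3 (0.0525), and when every probe set was tested (0.061). Keap1, its inhibitor, averaged 10.56 ± 0.077 in KO cells and 10.57 ± 0.051 in WT cells (SD, n = 3 each), and its difference of -0.010 had a 95% interval of -0.13 to 0.11. NRF2 protein, which is controlled mainly by its breakdown, was not measured and may not follow the mRNA level.

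Srxn1 and Nqo1, both known NRF2 target genes, were not called. They do not stand for all members in the roles given above for NRF2 targets, which were called in both directions. For example, Hmox1 (-0.23), Gss (-0.27) and Gstm1 (-0.57) were lower, and Mgst2 (0.98), Mgst1 (0.37) and Gsto1 (0.29) were higher. Srxn1, the sulfiredoxin that repairs over-oxidised peroxiredoxins, read 8.59, 8.53 and 8.50 in KO cells and 8.59, 8.53 and 8.48 in WT cells. Nqo1, a quinone reductase, read 6.88, 6.82 and 6.63 in KO cells and 6.64, 6.81 and 6.61 in WT cells, below the lower quartile of every array (7.12 to 7.16), where a change may not be visible.

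NRF2 binds the antioxidant response element, whose core is written TGACNNNGC. This motif was searched on both strands of RefSeq promoter windows (build GRCm38.p6, 250 bases before to 50 bases after a gene's start). Of the 37 genes, 31 had a window, and 9 of these held the motif in at least 1 window (29.0%, against 14.0% of 27025 genes). Some genes had several windows, and by window the share was 22.0% of 41, against 12.4% of 32851. It was found in 2 of the 8 genes called higher, 0 of 5 called lower with a window, and 7 of 17 measured genes that were not called. Gsr, Hmox1, Gclc, Gsta4, Aldh2 and Prdx6 had no window in the table. The 9 matches are shown with 10 bases on each side, on the strand of the gene, with the motif or its reverse complement in capitals, because they let the sites of called and uncalled genes be compared. Nfe2l2 and Mgst1 were called higher, and the others were not called.
Nfe2l2 (chr2:75704885-75704913, - strand): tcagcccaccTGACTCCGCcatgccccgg
Mgst1 (chr6:138140461-138140489, + strand): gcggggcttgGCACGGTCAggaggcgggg
Gclm (chr3:122245413-122245441, + strand): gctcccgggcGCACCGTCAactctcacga
Txnrd1 (chr10:82859104-82859132, + strand): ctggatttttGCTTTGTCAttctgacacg
Srxn1 (chr2:152105542-152105570, + strand): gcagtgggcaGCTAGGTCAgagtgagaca
Prdx1 (chr4:116685456-116685484, + strand): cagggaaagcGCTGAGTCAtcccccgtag
Sod1 (chr16:90220696-90220724, + strand): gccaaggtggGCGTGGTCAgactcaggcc
Blvra (chr2:127070598-127070626, + strand): cacgggaattGCTCGGTCAaggctccgcc
Me1 (chr9:86695902-86695930, - strand): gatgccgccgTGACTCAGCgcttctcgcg
The match of Nfe2l2 began 240 bases upstream of its start and that of Mgst1 56 bases upstream. Prdx1 and Me1, neither of which was called, hold the same 9 letters as each other, on opposite strands of their genes. A match describes these letters and does not show that NRF2 binds there. A window without a match does not show that the gene lacks the element, because bases outside the window were not searched.

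The 250 bases upstream of the start are shown for the 2 called genes with a match and for Akr1e1, whose difference was the largest and whose window held no match. Capitals mark the motif or its reverse complement.
Nfe2l2 (chr2:75704664-75704913, - strand): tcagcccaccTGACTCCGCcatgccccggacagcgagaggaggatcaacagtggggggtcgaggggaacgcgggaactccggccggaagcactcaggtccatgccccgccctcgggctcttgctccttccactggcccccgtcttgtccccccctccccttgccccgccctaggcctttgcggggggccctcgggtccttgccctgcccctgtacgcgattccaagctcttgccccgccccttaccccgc
Mgst1 (chr6:138140277-138140526, + strand): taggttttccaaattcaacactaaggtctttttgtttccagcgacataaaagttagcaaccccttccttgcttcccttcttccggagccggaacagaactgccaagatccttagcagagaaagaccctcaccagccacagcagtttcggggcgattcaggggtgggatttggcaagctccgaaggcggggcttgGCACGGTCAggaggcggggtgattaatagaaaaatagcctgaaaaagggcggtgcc
Akr1e1 (chr13:4609165-4609414, - strand): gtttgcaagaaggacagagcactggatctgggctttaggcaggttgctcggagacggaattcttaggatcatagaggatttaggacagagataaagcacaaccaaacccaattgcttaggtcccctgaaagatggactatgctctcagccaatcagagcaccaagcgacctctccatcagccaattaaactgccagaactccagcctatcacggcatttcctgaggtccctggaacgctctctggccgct

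Glutathione is made from glutamate, cysteine and glycine in a pair of steps, and oxidised glutathione is reduced again with NADPH. Of the 4 genes for this, 2 fell and 0 rose, where 10.2% of all genes were called lower and 9.66% higher. Gsr, the glutathione reductase, had log2 signals of 12.31, 12.20 and 12.31 in KO cells and 12.76, 12.70 and 12.70 in WT cells. All KO values lay below all WT values, at 73.5% of the WT level (log2 difference -0.45 ± 0.046, SE; adjusted p = 1.1e-04). Gss, the glutathione synthetase of the final step, read 9.67 to 9.78 in KO cells and 9.90 to 10.04 in WT cells, again without overlap, and fell to 83.2% of the WT level (-0.27 ± 0.052; adjusted p = 0.0057). Gclc and Gclm encode the catalytic and modifier subunits of glutamate-cysteine ligase, the enzyme of the rate-limiting first step. Gclc averaged 12.57 ± 0.018 in KO cells and 12.60 ± 0.040 in WT cells, and Gclm 11.97 ± 0.095 and 12.04 ± 0.070, so both groups overlapped and neither was called (95% intervals -0.12 to 0.065 and -0.20 to 0.065).

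Glutathione transferases, which join glutathione to electrophiles or act on lipid peroxides, went both ways, with 3 of 7 higher and 1 lower. That is 57.1% called, against 19.8% of all genes. Mgst2, a microsomal enzyme that can also make leukotriene C4, had the largest change of these 7. Its log2 signals were 12.30, 12.26 and 12.29 in KO cells and 11.36, 11.32 and 11.23 in WT cells, a difference of 0.98 ± 0.047 or 1.98-fold (adjusted p = 5.5e-07). Mgst1 read 8.07, 8.06 and 8.20 in KO cells and 7.70, 7.72 and 7.80 in WT cells and rose 1.29-fold (adjusted p = 8.6e-04). The third microsomal gene, Mgst3, averaged 8.43 in KO cells and 8.47 in WT cells and was not called (adjusted p = 0.65). Gsto1, an omega-class enzyme with glutaredoxin-like activity, read 11.76, 11.72 and 11.87 in KO cells and 11.54, 11.48 and 11.47 in WT cells and rose 1.22-fold (adjusted p = 0.0029).

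Gstm1, a cytosolic mu-class transferase, read 8.33, 8.71 and 8.42 in KO cells and 9.17, 8.91 and 9.09 in WT cells. It fell to 67.2% of the WT level (-0.57 ± 0.10; adjusted p = 0.0029), with the largest standard error of the called members (SD 0.20 in KO and 0.13 in WT). Gsta4, which clears the lipid peroxidation product hydroxynonenal, and Gstp1, the pi-class enzyme, were not called (0.089 and 0.059).

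Relatives of Gstm1 that lie beside it on the chromosome did not all fall with it. In the gene order of GRCm38.p6, Gstm4 adjoins Gstm1, and it rose 2.81-fold, with log2 signals of 9.19, 9.19 and 9.29 in KO cells and 7.74, 7.86 and 7.60 in WT cells (adjusted p = 3.4e-07). Gstm2, on the other side, differed by 0.22 (adjusted p = 0.065). Gstm3 fell by 0.51 at the probe set used (adjusted p = 2.2e-04), but its second probe set differed by -0.067 (adjusted p = 0.70 over all probe sets). Only the second is numbered within the run of its neighbours' probe sets, and which locus the one used reads was not tested. Gstm5 (0.0080), Gstm6 (-0.10) and Gstm7 (0.155) were not called. These genes are close in sequence, so a probe set of one may also take up transcripts of another, which was not tested. In other classes, Gstk1, a mitochondrial and peroxisomal enzyme, rose 2.88-fold (8.18, 8.46 and 8.29 in KO cells, against 6.68, 7.04 and 6.64 in WT cells). Its WT signals were under the lowest array quartile, so the size of this fold is uncertain. The theta-class gene Gstt2 fell to 60.7% of the WT level (adjusted p = 3.3e-06).

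**Figure D2:**
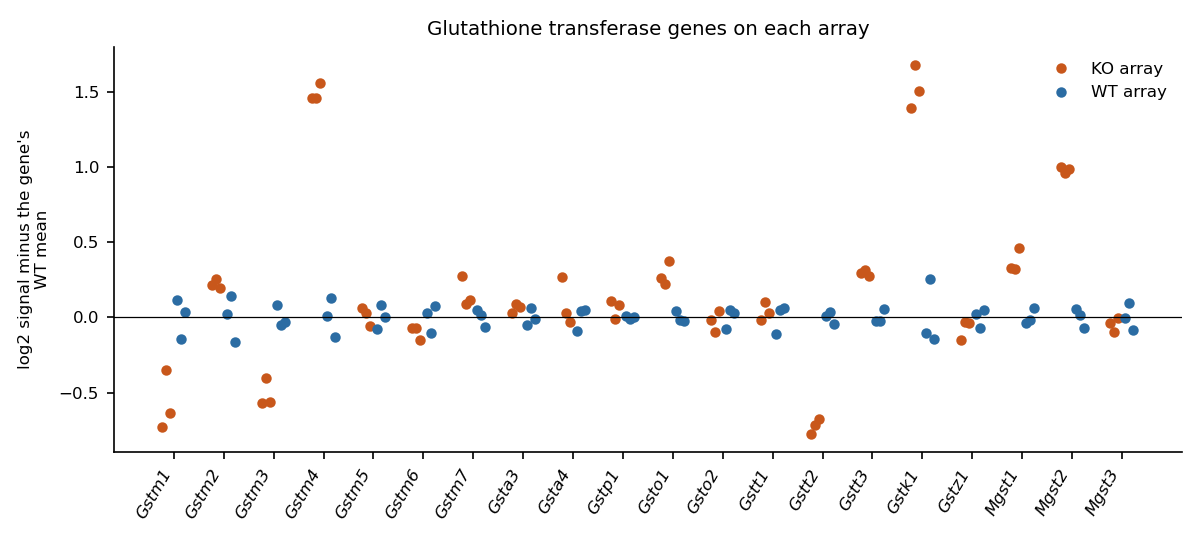
Log2 signal of each array minus the gene's own Dusp6 WT mean (vertical axis) for 20 glutathione transferase genes, with 3 KO points left of 3 WT points. Gstm4, Gstk1 and Mgst2 lie well above the line in all 3 KO arrays, and Gstm1, Gstm3 and Gstt2 below it. Gstm3 is shown at the probe set used, and its second probe set differed little.

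Among enzymes that destroy peroxides the called differences were small. Cat, the catalase of peroxisomes, read 13.93, 13.90 and 13.91 in KO cells and 14.18, 14.13 and 14.09 in WT cells. The KO values lay below all WT values, and Cat fell to 85.8% of the WT level (-0.22 ± 0.042; adjusted p = 0.0049). Prdx4, the peroxiredoxin of the endoplasmic reticulum, read 11.00, 11.10 and 11.14 in KO cells and 11.34, 11.36 and 11.42 in WT cells and fell to 81.8% (adjusted p = 0.0026). Of the 4 peroxiredoxins measured it was the 1 called, against 19.8% of all genes. The cytosolic Prdx1 differed by -0.045 and the mitochondrial Prdx3 by -0.0070.

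Prdx2 depended on the probe set. At the one used, it read 13.10, 13.14 and 13.25 in KO cells and 13.07, 12.96 and 13.03 in WT cells, a difference of 0.15 without overlap that missed the threshold (adjusted p = 0.085). Its second probe set differed by 0.27 (11.17, 11.36 and 11.23 in KO cells and 10.92, 11.05 and 10.99 in WT cells) and passed when all probe sets were tested (adjusted p = 0.046). The mean of both also passed (0.21, adjusted p = 0.010). The gene table lists pseudogenes of Prdx1, Prdx2, Gpx4, Gstp1 and Txn1, so which transcripts their probe sets read is uncertain. For Prdx1 and Prdx2, which locus the probe set used reads was not tested, so the count of called peroxiredoxins is not firm. The 2 probe sets of Gpx4 (-0.052 and -0.061), Prdx1 (-0.045 each) and Me1 (-0.011 and 0.043) differed little between genotypes.

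Gpx1, the cytosolic glutathione peroxidase, averaged 13.28 ± 0.076 in KO cells and 13.09 ± 0.071 in WT cells and rose 1.14-fold (adjusted p = 0.038). This call was lost without KO replicate 1 (0.088), KO replicate 3 (0.131), WT replicate 2 (0.115) or WT replicate 3 (0.121). Gpx4, which protects membranes from lipid peroxidation and ferroptosis, averaged 10.73 in KO cells and 10.78 in WT cells (adjusted p = 0.55). The superoxide dismutases were not called, with Sod1 of the cytosol at 0.037 and Sod2 of mitochondria at -0.10 (adjusted p = 0.61 and 0.205).

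In the thioredoxin system 1 of 4 genes was called, against 19.8% of all genes. Txnrd2, the mitochondrial thioredoxin reductase, read 8.99, 8.93 and 9.02 in KO cells and 8.78, 8.82 and 8.81 in WT cells and rose 1.13-fold (adjusted p = 0.018). The call was lost without KO replicate 3 (adjusted p = 0.074), WT replicate 1 (0.074) or WT replicate 3 (0.052). The cytosolic partners were not called. Txn1, thioredoxin itself, differed by 0.030 (95% interval -0.085 to 0.15) and Txnrd1, its reductase, by 0.043 (-0.055 to 0.14).

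Of 4 genes of haem breakdown and iron storage, 2 fell and 0 rose, where 10.2% of all genes were called lower and 9.66% higher. Called or not, 2 of the 4 differences were positive and 2 negative. Haem oxygenase opens the haem ring to biliverdin, which biliverdin reductases turn into bilirubin. Hmox1, the inducible haem oxygenase, read 8.31, 8.32 and 8.32 in KO cells and 8.56, 8.53 and 8.55 in WT cells. Arrays of a genotype lay within 0.03 of each other, and Hmox1 fell to 85.2% of the WT level (-0.23 ± 0.039; adjusted p = 0.0024). Blvrb, which reduces flavins and biliverdin IXbeta, read 9.80, 9.77 and 9.82 in KO cells and 10.11, 10.11 and 10.10 in WT cells and fell to 80.6% (adjusted p = 4.3e-04). Blvra, the reductase for the main biliverdin isomer, differed by 0.071 (adjusted p = 0.37). Fth1, the ferritin heavy chain that stores iron, differed by 0.071 without overlap (adjusted p = 0.27).

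Hmox1, Blvrb and Cat are abundant in macrophages or red cell precursors, and cultures were measured whole, so fewer cells of a type and less RNA per cell cannot be told apart. Of 13 macrophage and granulocyte markers, Lyz2 rose by 0.70 and 0 fell. The median log2 signal of these 13 was 7.51 to 7.54 on the KO arrays and 7.50 to 7.57 on the WT arrays. Of 12 erythroid markers 7 were measured, without the haemoglobin genes, and Car1 rose by 0.16. Their median, which on each array was the value of the single gene Epor, was 8.14 to 8.25 on the KO arrays and 8.14 to 8.38 on the WT arrays. Of 8 measured T and NK cell markers Zap70 fell by 0.15, and of 10 stromal markers Fn1 rose by 0.215. The median was 7.63 to 7.77 on the KO arrays and 7.65 to 7.74 on the WT arrays for the T and NK cell markers, and for the stromal ones it was at least 7.94 on each KO array and at most 7.92 on each WT array. Over all genes, 19.8% were called in either direction. The part of other cell types in the member changes was not tested. Of 12 measured B cell precursor markers 2 rose (Rag1 by 0.20 and Ptprc by 0.20) and 4 fell, which were Dntt, the junctional polymerase of early precursors (-1.42), Rag2 (-0.435), Vpreb1 (-0.27) and Blnk (-0.23). Their median log2 signal was 12.99 to 13.06 on the KO arrays and 13.18 to 13.26 on the WT arrays, without overlap. Defining genes such as Cd79a (13.88 in KO cells and 13.88 in WT cells) and Igll1 (14.50 in KO cells and 14.52 in WT cells) lay above the upper quartile of the arrays (10.45 to 10.49), while Rag1 and Rag2 lay below it.

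Akr1e1 stood apart among the quinone, carbonyl and NADPH enzymes. It encodes an aldo-keto reductase that acts on anhydrofructose. Its log2 signals were 9.34, 9.61 and 9.61 in KO cells and 6.27, 6.38 and 6.13 in WT cells, 9.57-fold higher in KO (log2 difference 3.26 ± 0.085, SE; adjusted p = 8.8e-09). The WT signals were under the lowest array quartile (7.12 to 7.16), so the size of the fold is uncertain. Its nearest measured neighbours in the gene order, picked after the value of Akr1e1 was seen, were the related gene Akr1c21, which differed by 0.064 (adjusted p = 0.50), and the transcription factor gene Klf6, which rose by 0.31. Akr1c12, another aldo-keto reductase gene of the same chromosome, rose by 0.90, with 8.65, 9.06 and 9.13 in KO cells and 8.02, 8.03 and 8.09 in WT cells.

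The other enzymes of this group changed less. Cbr1, a carbonyl reductase, averaged 8.19 ± 0.058 in KO cells and 7.97 ± 0.14 in WT cells, with adjusted p = 0.0499 for a difference of 0.22. That call was lost without KO replicate 1 (0.109), KO replicate 2 (0.150), KO replicate 3 (0.063), WT replicate 1 (0.0745) or WT replicate 2 (0.122). Aldh2, which oxidises acetaldehyde in mitochondria, and Me1, the cytosolic malic enzyme that supplies NADPH, were not called (0.061 and -0.011).

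**Figure D3:**
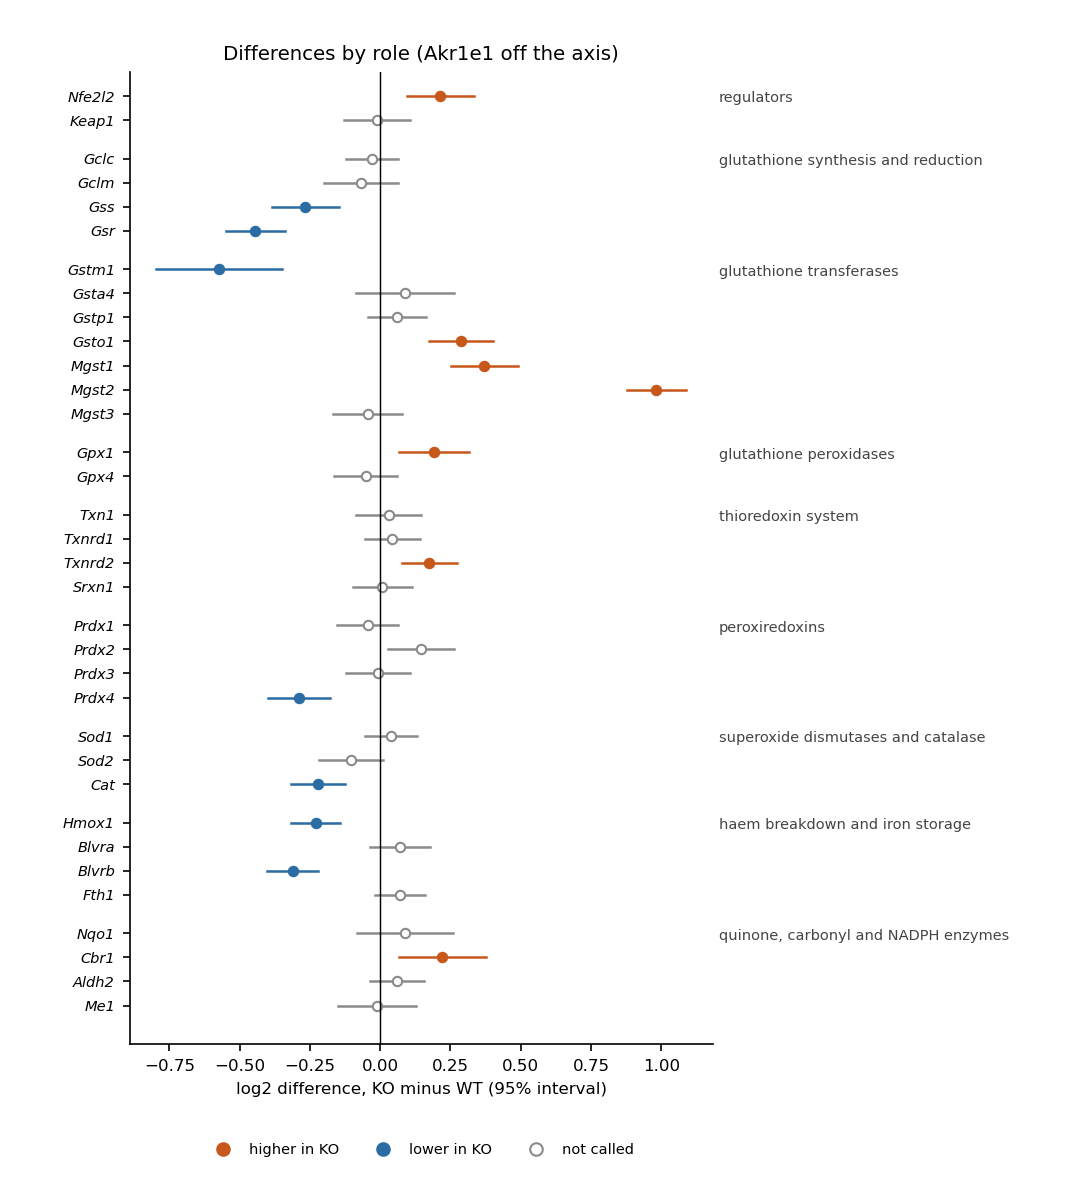
Log2 difference, Dusp6 KO minus Dusp6 WT (horizontal axis), with its 95% interval, for the measured genes in order of role. Akr1e1 (3.26) lies beyond the axis. Filled orange points were called higher, filled blue points lower, and open grey points were not called. Within most roles called genes stand beside uncalled ones.

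A wider list of 128 genes of the pathway, also chosen with earlier results known, had 121 measured. Of these, 22 were higher and 13 lower (18.2% and 10.7%, against 9.66% and 10.2% of all genes), with a median difference of 0.0080. Among 15 partners and regulators of NRF2, 2 rose and 0 fell (13.3% called, against 19.8% of all genes). Bach2, a repressor that competes for NRF2-type sites and is prominent in B cells, read 12.26, 12.24 and 12.25 in KO cells and 11.94, 11.99 and 11.94 in WT cells and rose 1.23-fold (adjusted p = 6.4e-04). Prkcd, a kinase reported to phosphorylate NRF2, rose 1.17-fold. Bach1, the haem-sensing repressor of Hmox1, differed by 0.0020, Cul3, the scaffold of the KEAP1 ligase, by 0.0050, and Mafg, a small Maf partner, by -0.067, and none was called.

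Genes that supply cysteine and break glutathione down gave 1 higher and 4 lower of 17 (29.4% called, against 19.8% of all genes). Chac1, which cleaves glutathione, read 9.69, 9.64 and 9.81 in KO cells and 10.84, 10.76 and 10.98 in WT cells and fell to 45.2% of the WT level (adjusted p = 1.95e-06). Cth, which makes cysteine from cystathionine, fell to 58.1% (8.89, 8.79 and 8.93 in KO cells and 9.51, 9.71 and 9.73 in WT cells). Slc7a11, the cystine importer, fell to 77.8% (adjusted p = 0.0045), at signals below the lower quartile of the arrays (6.36 in KO and 6.72 in WT). Slc25a40, a mitochondrial glutathione importer, fell by 0.29. Abcc4, an export pump, rose 1.39-fold.

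Further glutathione transferases gave 3 higher and 3 lower of 16 (37.5% called, against 19.8% of all genes), with Gstm3 counted at the probe set used. Further peroxidases and thiol reductants gave 8 higher and 1 lower of 24 (33.3% and 4.2%, against 9.66% and 10.2% of all genes). Those with the largest differences were Msrb3, a methionine sulfoxide reductase (1.73-fold higher), Selenow, a small selenoprotein (1.41-fold higher), Nxn, a thioredoxin-like protein (-0.48), and Glrx2, the mitochondrial glutaredoxin (1.36-fold higher). Of 10 genes of NADPH supply, Mthfd2, a mitochondrial folate enzyme, fell to 81.6% and 0 rose. Over all genes, 10.2% were called lower and 9.66% higher.

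Among further haem, iron and carbonyl genes 6 of 28 rose and 2 fell (28.6% called, against 19.8% of all genes). Ephx1, the microsomal epoxide hydrolase, read 10.85, 10.90 and 10.95 in KO cells and 9.82, 9.77 and 9.83 in WT cells and rose 2.13-fold. Aldh7a1 rose 1.88-fold, and Aldh1b1, a mitochondrial aldehyde dehydrogenase, fell to 48.7% of the WT level. Fech, which inserts iron to finish haem, fell to 67.1% and is named here beside Hmox1 after its value was seen. Genes of superoxide-producing oxidases gave 2 higher and 2 lower of 11 (36.4% called, against 19.8% of all genes). Cyba, the membrane subunit that pairs with Cybb, rose 1.36-fold and Ncf1 1.19-fold, whereas Ncf4 and Noxo1 fell by 0.26 and 0.20. Cybb, the catalytic subunit, averaged 12.79 in KO cells and 12.84 in WT cells (adjusted p = 0.52).

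**Figure D4:**
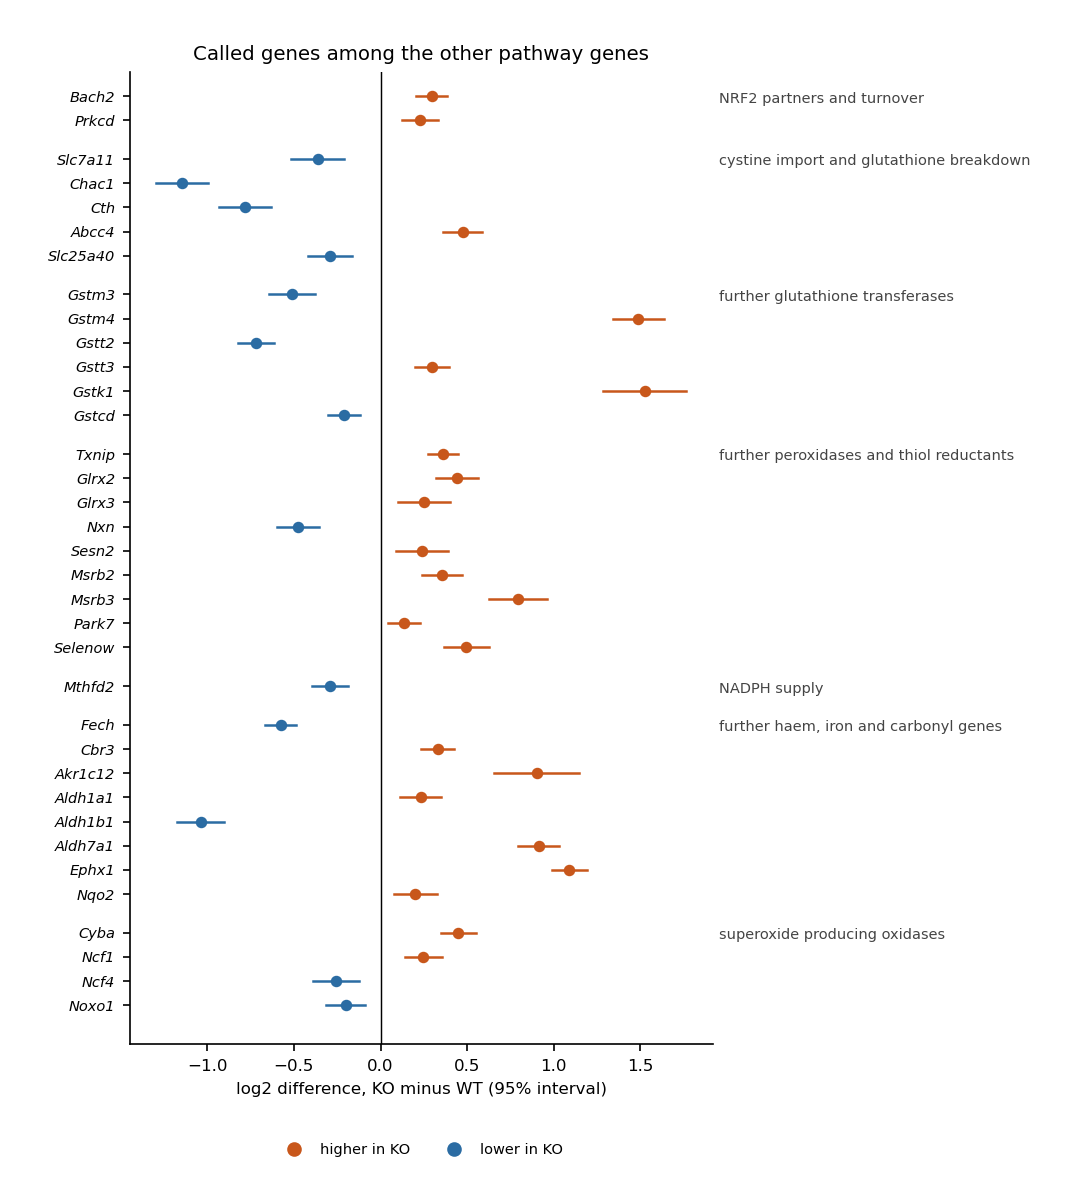
Log2 difference, Dusp6 KO minus Dusp6 WT (horizontal axis), with its 95% interval, for the 35 called genes of the wider list of 121 measured genes, by group. Orange points are the 22 higher genes and blue points the 13 lower ones. Among these called genes, those for cysteine supply and glutathione breakdown lie mostly to the left and peroxidases and thiol reductants mostly to the right. Over all 17 measured genes of the first group, 9 differences were positive and 8 negative. Over all 24 of the second, 15 were positive and 9 negative.

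**Figure D5:**
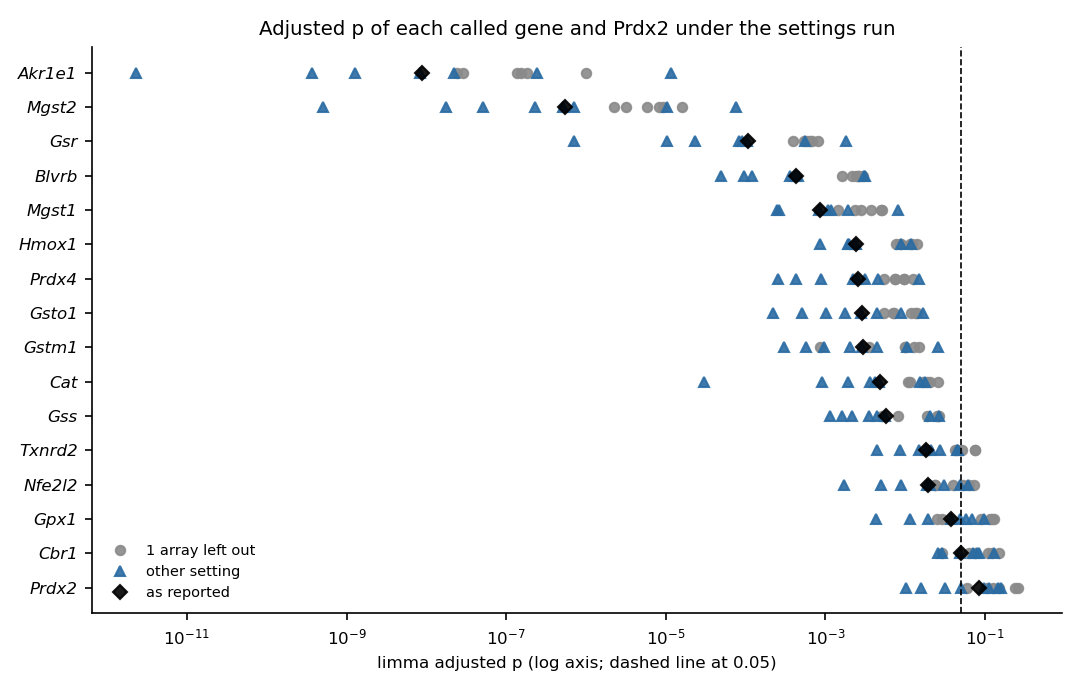
Limma adjusted p (horizontal log axis, dashed line at 0.05) of the 15 called genes and Prdx2 in each setting run. Black diamonds are the values reported, grey circles leave out 1 array and blue triangles are the other settings. All points of 11 genes lie left of the line, and those of Txnrd2, Nfe2l2, Gpx1, Cbr1 and Prdx2 fall on both sides.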

How the data were processed

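Total RNA was labelled with biotin and hybridised to Affymetrix arrays, per the labels' protocols. The deposited values are log2 signals for each probe set on each array. RMA and Partek 6.5 are named in the submitters' processing notes without their roles, and no genome build is stated there. That the scale is log2 rests on the range of the values (3.23 to 14.83, array medians 8.38 to 8.42). The number of arrays limits the precision (median standard error 0.051). Arrays correlated at 0.996 to 0.998 within a genotype and 0.987 to 0.989 between genotypes.

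Of 35556 probe sets, 21789 carried 1 gene symbol, 1621 several and 12146 were unnamed here. All 19938 genes were fitted by limma 3.58.1 under R 4.3.3 (lmFit, eBayes, genotype as the only term) with Benjamini-Hochberg adjustment over all genes. Same-numbered arrays did not deviate together (correlations 0.010, -0.117 and 0.053), so replicate numbers were not used as pairs.

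Members and lists were chosen with earlier results of these data known. Text names all called members, Nfe2l2 and Keap1, and up to 4 called genes with the largest differences in each wider list; others, such as Gstm2, Gstm5 to Gstm7, Fech, Bach1, Cul3, Mafg, Cybb and neighbours of Akr1e1, were added after their values were seen. Alternatives were a repeated quantile normalization, centring on array medians, filters on dim genes, the mean of a gene's probe sets, testing every probe set, trend and robust options, a replicate block and leaving out each array. Gene names and gene order came from GRCm38.p6 tables and promoters from RefSeq.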

Additional observations from a re-analysis of the deposited data

How the results depend on the processing

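Over the 15 settings run, the reported one included, 5 to 10 of the NRF2, glutathione and peroxide defence genes were called higher (8 as reported) and 6 to 7 lower (7 as reported). Testing every probe set gave 5 higher, and leaving out 1 array gave 5 to 6 higher, with the lowest count without Dusp6 KO replicate 3, Dusp6 WT replicate 2 or Dusp6 WT replicate 3. The replicate block gave 7 higher and 7 lower and ended no call but that of Cbr1 (adjusted p = 0.081). Repeated quantile normalization and centring ended the calls of Gpx1 (0.070 and 0.057) and Cbr1 (0.085 and 0.070), and testing every probe set those of Nfe2l2, Gpx1 and Cbr1. Prdx2 passed among genes at or above the 25th percentile of signal (0.0495) or the median (0.031), with the mean of its probe sets (0.010) and with trend and robust options (0.016), which also called Fth1 (0.042). No called member changed direction in any setting. The median difference of the members ran from 0.011 to 0.036, and all genes called numbered 1491 to 2189 higher and 1512 to 2411 lower. The wider list gave 18 to 25 higher and 11 to 18 lower. The 3 arrays a group limit the precision, and no probe set was tested against background.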
